A study of Aspergillus glaucus with 6 samples.

Results

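The late genes of Aspergillus glaucus CCHA described here are 14 of the 8441 gene IDs listed across 6 RNA sequencing libraries of mycelium. They had more reads at 84 h than at 36 h of treatment in medium with 1 M and in medium with 3 M added sodium chloride (NaCl). The libraries cover 0 M, 1 M, 3 M and 4 M NaCl at 84 h, and 1 M and 3 M NaCl at 36 h, with 1 library per condition. Strain CCHA is the only strain, and the treatment labels name no agent other than NaCl. There are no replicates: each difference compares 2 single libraries without any estimate of how much cultures vary, and none has a p-value.

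The genes were chosen by their measured levels, in CPM (counts scaled to the library total) with 1 added. Both the 1 M and the 3 M library at 84 h had to reach 10 CPM, and the lower of them had to be at least 3-fold the higher of the 2 libraries at 36 h. Of 5758 genes with 10 CPM in both 84 h libraries, 29 met this, or 0.504%. A gene also needed a 3 M level at 36 h above 0.333 of its 1 M level at 36 h. No library could be 3-fold above the next highest, and the 4 M level had to exceed 0.25 of the lowest other level. The condition at 36 h took away 12 of the 29, the one on the highest library another 3, and the one on 4 M none. The rule also leaves out 51 IDs in listed runs; 1 of them was among the 29 and had already failed the condition at 36 h, so no further gene was lost. The time differences therefore describe the choice and are not a finding. So do, in part, comparisons with the 1 M and 3 M levels at 84 h.

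Aspergillus glaucus is a filamentous fungus known for growth on salty and dry substrates. In liquid or surface culture a mycelium first extends and later, as nutrients run down and hyphae age, turns to secondary metabolites, pigments, secreted enzymes and spore-bearing structures. High NaCl slows growth, and the hyphae then accumulate compatible solutes such as glycerol and adjust ion transport and cell wall. Which of these processes the 14 genes serve is not known from the files, which do not pair gene IDs with names. A RefSeq table of 11428 genes of another strain (assembly Aspgl1) matched 0 of the IDs, so no names, roles, markers of spores or fruiting bodies, or sequences are given. In such bulk RNA, more cells of a type and more RNA per cell cannot be told apart.

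Library totals ran from 16371771 to 18376857 counts. The 14 genes were covered by at least 35 reads in every library. Together they took 0.227%, 0.503%, 0.315% and 0.119% of all counts in 0 M, 1 M, 3 M and 4 M at 84 h, against 0.0653% and 0.0475% in 1 M and 3 M at 36 h. The exact (Clopper-Pearson) 95% intervals of these shares cover counting error only, and the widest was 0.499% to 0.506%, in 1 M at 84 h. One gene, AG08156.1, supplied 57.0% of the genes' counts in 0 M, and without it the 84 h shares were 0.0978%, 0.343%, 0.258% and 0.108%. The share was thus highest in 1 M and next highest in 3 M at 84 h. The pooled share in 0 M was close to that in 4 M once AG08156.1 was left out. In 4 M, however, AG02684.1 supplied 8840 of the genes' 21351 counts, and single genes differed between 0 M and 4 M in both directions. Gene lengths are not given, so CPM values are compared between libraries and not between genes.

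**Figure D1:**
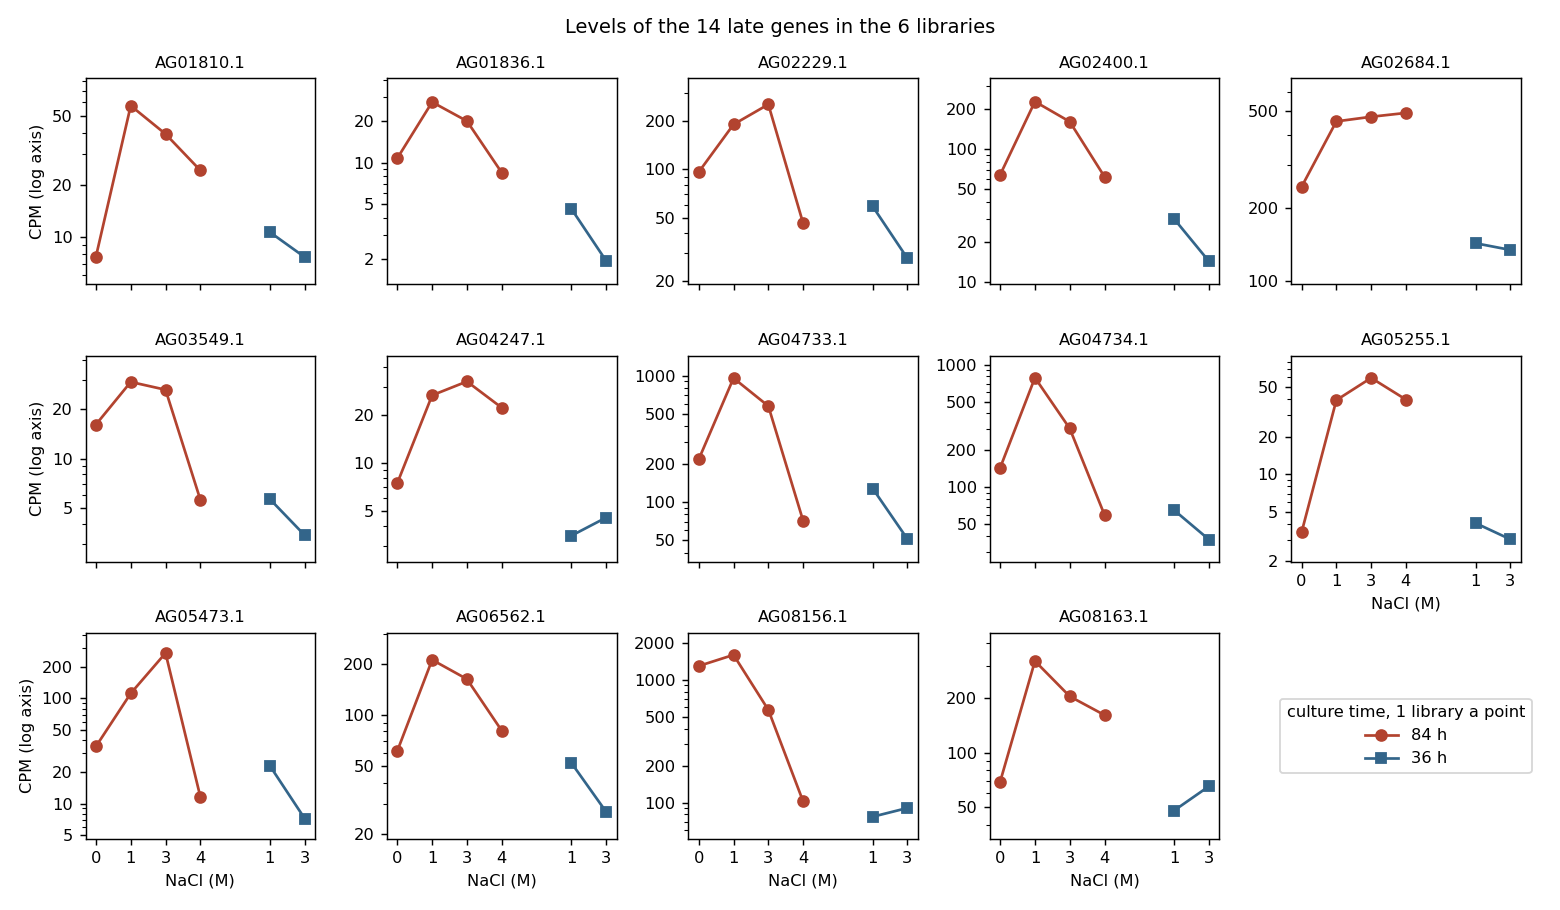
Levels of the 14 late genes in CPM on a log axis, 1 panel per gene and 1 library per point, with 84 h (circles, 0 to 4 M NaCl) left of 36 h (squares, 1 and 3 M). In 13 panels the 0 M point at 84 h lies below both the 1 M and the 3 M point; AG08156.1 is the exception.

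At 84 h the culture without added salt generally had less of these transcripts than the cultures in 1 M and 3 M. The 0 M level lay below both in 13 of the 14 genes, and at least 2-fold below both in 9. Over the 5758 genes with 10 CPM in both salts, the shares were 32.4% and 3.37%. Since high levels in 1 M and 3 M chose the genes, this is a description. Scaling by TMM factors or DESeq2 size factors added AG02229.1 to the 9. The 0 M level was above both 36 h levels in 12 of the 14, and between them in AG01810.1 and AG05255.1, where 41.1% and 39.5% of the 5758 genes had these placings. The 36 h levels chose the genes too, so this also is a description. For AG01810.1, AG05255.1 and AG08163.1, the exact 95% counting interval of 0 M at 84 h over 3 M at 36 h included 0, as did that of AG05255.1 over 1 M at 36 h. In these 3 genes the 0 M level dropped just below the 3 M level at 36 h under both TMM and DESeq2 scaling. Taken at the 3-fold size used for choosing, AG08156.1 alone was late in 0 M, 1 of the 12 genes with 10 CPM in at least 1 of the 3 libraries, against 1.83% of 6507 genes.

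Set against 0 M at 84 h, the 4 M culture divided the genes into 3 groups. These 2 libraries entered the rule directly only through its limits on the highest and the 4 M level. Among the 15 genes that the later conditions left out, 12 were lower and 0 higher in 4 M by 2-fold or more. How far the rule shaped the split was not tested. In 4 M, 5 of the 14 genes were at least 2-fold higher, where 9.96% of 6413 genes with 10 CPM in either library were. Another 6 were 2-fold lower or more, where 20% of all these genes were, and 3 differed by less than 2-fold. The genes spread to both sides, with a median log2 fold change of -0.20 against 0.02 over all genes compared (a prior count of 2 was added to each library). The rule favours genes that vary between libraries, and whether the counts differ from the background beyond that was not tested. TMM and DESeq2 scaling moved the median of all genes compared to 0.10 and 0.12, and the members' median to -0.11 and -0.10.

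**Figure D2:**
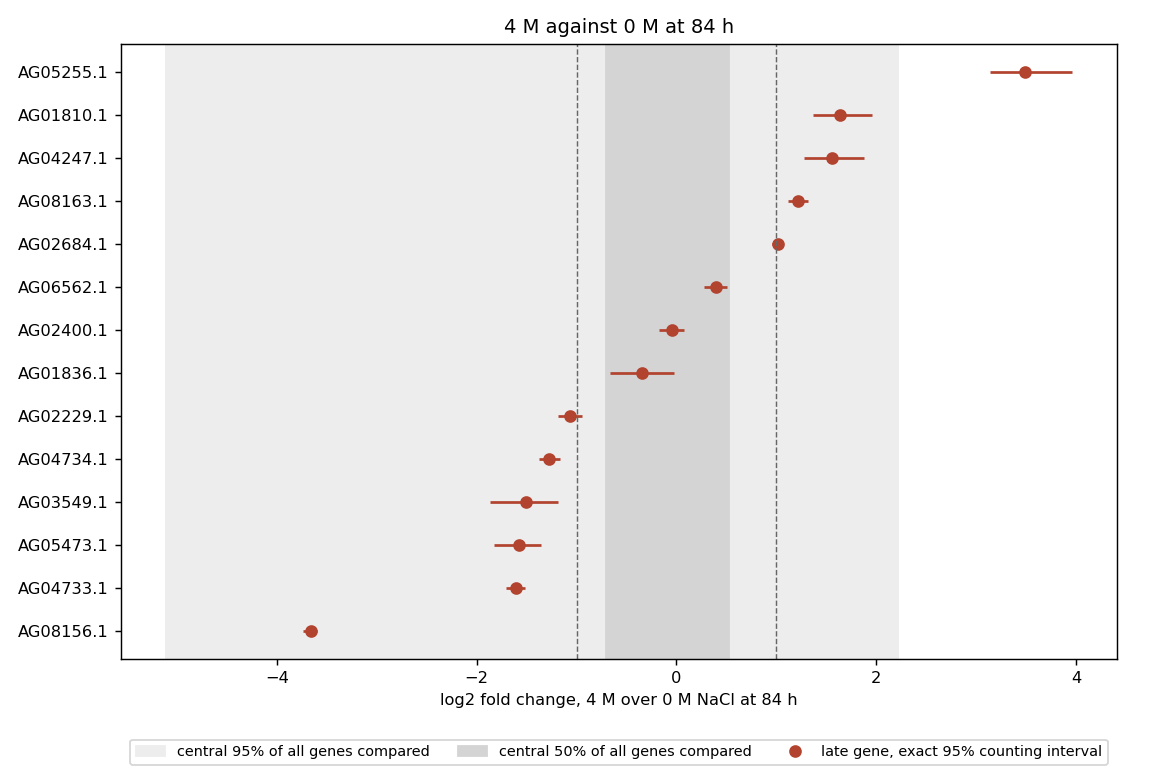
Log2 fold change of 4 M over 0 M NaCl at 84 h for each late gene, with its exact 95% counting interval; the light and dark bands hold the central 95% and 50% of the 6413 genes compared, and dashed lines mark 2-fold. The genes run from 3.49 (AG05255.1) to -3.66 (AG08156.1), with 3 between the dashed lines.

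The 5 genes higher in 4 M than in 0 M were AG05255.1, AG01810.1, AG04247.1, AG08163.1 and AG02684.1. AG05255.1 had 3.42, 39.3, 59.2 and 39.7 CPM in 0 M, 1 M, 3 M and 4 M at 84 h, against 4.06 and 3.01 CPM in 1 M and 3 M at 36 h. It was thus low in both 36 h libraries and in the unsalted 84 h library. At 84 h, 4 M lay well above these, as did 1 M and 3 M, for which the rule requires it over 36 h. Its log2 fold change of 4 M over 0 M was 3.49, with an exact 95% counting interval of 3.14 to 3.96, and its 84 h to 36 h ratio (CPM with 1 added, lower over higher library) was the largest of the 14 genes, at 7.95. AG04247.1 was likewise highest in 3 M and low without salt, at 7.45, 26.5, 32.4 and 22.2 CPM in 0 M, 1 M, 3 M and 4 M at 84 h, against 3.47 and 4.52 CPM in 1 M and 3 M at 36 h. Its log2 fold change of 4 M over 0 M was 1.56 (1.28 to 1.88).

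AG02684.1 was the only one of the 14 whose highest level was in 4 M. It stood at 243, 453, 473 and 491 CPM in 0 M, 1 M, 3 M and 4 M at 84 h, against 143 and 134 CPM in 1 M and 3 M at 36 h. Its level in 4 M was only 1.04-fold that in 3 M, and its log2 fold change of 4 M over 0 M was 1.01 (0.96 to 1.07), at the edge of the 2-fold size. The 1 M, 3 M and 4 M libraries at 84 h were thus nearly level for this gene and lay above the other 3 libraries. Over the 36 h libraries, the rule requires this of 1 M and 3 M.

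AG01810.1 and AG08163.1 were highest in 1 M at 84 h and stepped down with more salt. AG01810.1 had 7.70, 57.4, 39.4 and 24.3 CPM in 0 M, 1 M, 3 M and 4 M at 84 h, against 10.7 and 7.64 CPM in 1 M and 3 M at 36 h. AG08163.1 had 69.1, 317, 203 and 160 CPM in 0 M, 1 M, 3 M and 4 M at 84 h, against 48.0 and 65.2 CPM in 1 M and 3 M at 36 h. In both, the 4 M level at 84 h was above the 36 h levels, as the rule requires of 1 M and 3 M. The 0 M level at 84 h lay between the 36 h levels in AG01810.1 and near the higher of them in AG08163.1. The counting interval of the log2 ratio of 0 M at 84 h to 1 M at 36 h left out 0 in both. It was -0.81 to -0.13 for AG01810.1 and 0.39 to 0.66 for AG08163.1. Their log2 fold changes of 4 M over 0 M were 1.64 (1.37 to 1.95) for AG01810.1 and 1.21 (1.11 to 1.31) for AG08163.1.

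AG02400.1, AG06562.1 and AG01836.1 differed by less than 2-fold between 4 M and 0 M, and peaked in between. AG02400.1 had 64.3, 228, 161 and 62.1 CPM in 0 M, 1 M, 3 M and 4 M at 84 h, against 30.0 and 14.4 CPM in 1 M and 3 M at 36 h. AG06562.1 had 61.6, 210, 162 and 80.8 CPM in 0 M, 1 M, 3 M and 4 M at 84 h, against 52.4 and 27.0 CPM in 1 M and 3 M at 36 h. AG01836.1 had 10.8, 27.6, 20.1 and 8.50 CPM in 0 M, 1 M, 3 M and 4 M at 84 h, against 4.65 and 1.95 CPM in 1 M and 3 M at 36 h. All 3 were highest in 1 M at 84 h, next highest in 3 M, and lowest in 3 M at 36 h. The log2 fold changes of 4 M over 0 M were -0.05 (-0.17 to 0.07) for AG02400.1, 0.39 (0.28 to 0.51) for AG06562.1 and -0.34 (-0.67 to -0.03) for AG01836.1, and that of AG02400.1 turned positive with TMM (0.03) and DESeq2 (0.05) scaling.

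Lower in 4 M by 2-fold or more were 6 genes, AG08156.1, AG04733.1, AG05473.1, AG03549.1, AG04734.1 and AG02229.1. AG08156.1 had 1296, 1597, 569 and 102 CPM in 0 M, 1 M, 3 M and 4 M at 84 h, against 76.7 and 90.3 CPM in 1 M and 3 M at 36 h. It was the one gene higher in 0 M than in 3 M at 84 h, and its 4 M level was only 1.13-fold that in 3 M at 36 h. Its log2 fold change of 4 M over 0 M, -3.66 (-3.73 to -3.60), was the lowest of the 14. AG05473.1 was highest in 3 M, with 34.9, 112, 270 and 11.6 CPM in 0 M, 1 M, 3 M and 4 M at 84 h, against 22.8 and 7.19 CPM in 1 M and 3 M at 36 h. Between 3 M and 4 M at 84 h it had the largest drop of the 14, with a log2 fold change of 4 M over 3 M of -4.53 (-4.75 to -4.34). Its log2 fold change of 4 M over 0 M was -1.58 (-1.83 to -1.36).

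AG02229.1 resembled AG05473.1 in its order, with 96.4, 191, 255 and 46.1 CPM in 0 M, 1 M, 3 M and 4 M at 84 h, against 58.8 and 27.8 CPM in 1 M and 3 M at 36 h. Its log2 fold change of 4 M over 0 M was -1.06 (-1.19 to -0.94), and -0.98 with TMM scaling, which takes it out of the 2-fold group. AG03549.1 had 16.1, 29.3, 26.3 and 5.61 CPM in 0 M, 1 M, 3 M and 4 M at 84 h, against 5.65 and 3.40 CPM in 1 M and 3 M at 36 h, a log2 fold change of 4 M over 0 M of -1.50 (-1.87 to -1.19). In both genes the 4 M level lay between the 2 levels at 36 h.

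**Figure D3:**
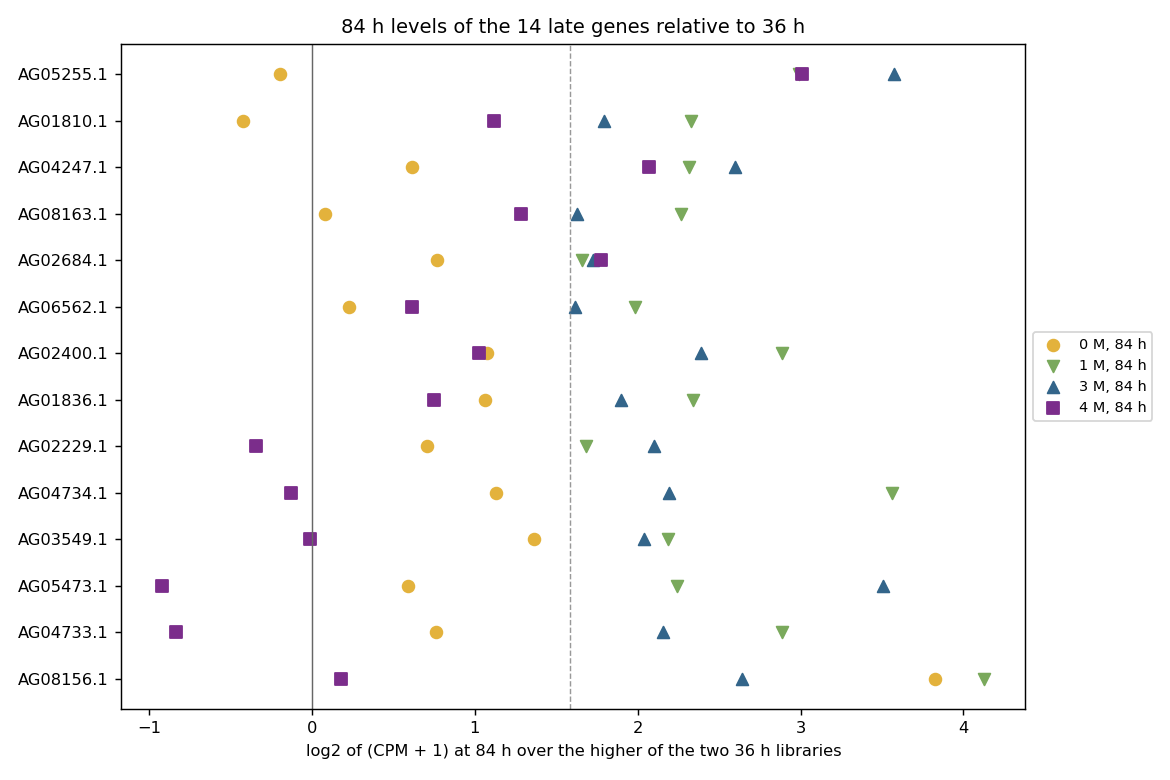
The 84 h levels of each late gene, as log2 of CPM with 1 added, over the higher of its 2 levels at 36 h; the solid line marks equality and the dashed line 3-fold. The 1 M and 3 M symbols lie right of the dashed line by the rule, whereas the 4 M squares run from 8.04-fold (AG05255.1) to 0.529-fold (AG05473.1).

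Measured against 36 h, the 4 M level at 84 h was far above the 36 h levels in some of these genes and between them in others. It was at least 3-fold the higher 36 h level in AG05255.1, AG04247.1 and AG02684.1, which are 3 of the 12 genes with 10 CPM in at least 1 of the 3 libraries, against 0.592% of 6417 genes. It lay between the 2 levels at 36 h in 5 genes, AG02229.1, AG03549.1, AG04733.1, AG04734.1 and AG05473.1, and above both in the other 9. Of the 5758 genes with 10 CPM in 1 M and 3 M at 84 h, 35.6% lay between and 40.9% above both, so the 5 of 14 is near the share over all genes. For AG08156.1, one of the 9, the 4 M level was slightly below that in 3 M at 36 h with DESeq2 scaling (log2 fold change -0.02). For AG03549.1 the counting interval of the 4 M over the 1 M 36 h level included 0, and TMM scaling reversed their order. At least 2-fold below both 1 M and 3 M at 84 h were 8 genes in 4 M, namely the 6 lower ones with AG01836.1 and AG02400.1, against 14.6% of 5758 genes. The 36 h and the 1 M and 3 M levels chose the genes, so these counts too are a description.

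The genes left out by the later conditions did not show the same spread between 4 M and 0 M. Of the 15 genes that were late by size alone but not taken, 12 had a 4 M level 2-fold or more below 0 M and 0 had one as far above, with a median log2 fold change of -2.89 (range -5.99 to -0.68). Over the 6413 genes with 10 CPM in either library, 20% were as far below and 9.96% as far above. Some of the 15 had less than 10 CPM in both, such as AG00906.1 (8.25 CPM in 0 M and 1.22 CPM in 4 M). Of these 15, 12 had been left out for a low 3 M level at 36 h. The part of each condition in this was not tested.

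The time differences themselves were of unequal size in the 2 salts. In 1 M, the fold of 84 h over 36 h in CPM ran from 3.18 (AG02684.1) to 20.8 (AG08156.1), and in 3 M from 3.12 (AG08163.1) to 37.6 (AG05473.1). The median log2 fold change of the 14 genes was 2.63 in 1 M and 2.95 in 3 M, against -0.03 and 0.23 over all genes compared. With TMM scaling the members' medians were 2.68 and 2.74, and those of all genes 0.02 and 0.02. The gene with the largest time difference was not the same in both salts. AG08156.1, the highest in 1 M, had a fold of 6.30 in 3 M, and AG05473.1, the highest in 3 M, had a fold of 4.89 in 1 M. AG05255.1 was large in both, with folds of 9.67 in 1 M and 19.7 in 3 M.

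**Figure D4:**
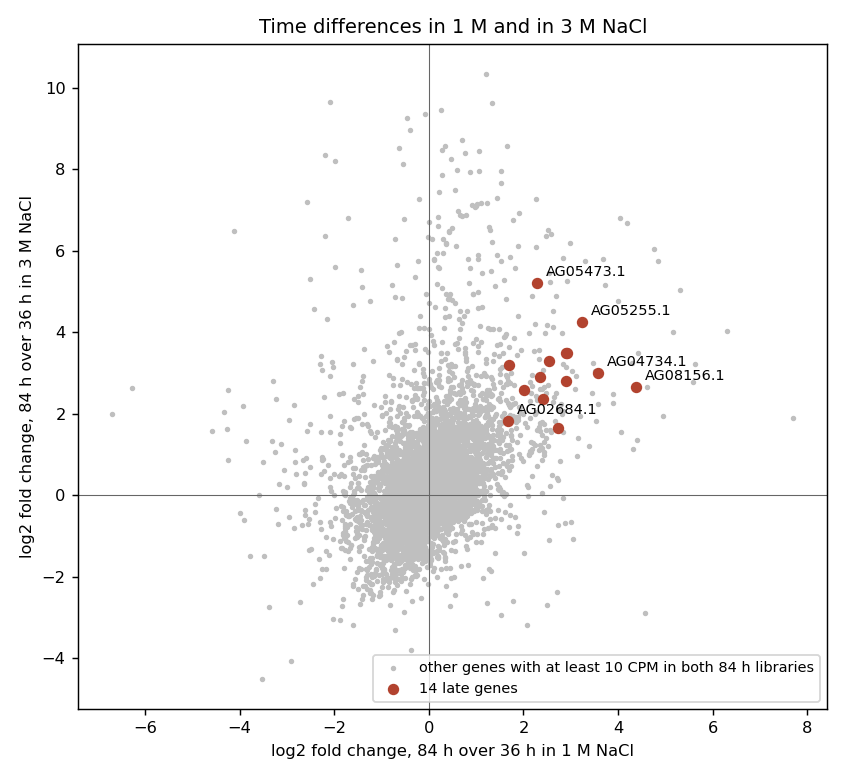
Log2 fold change of 84 h over 36 h in 1 M NaCl (horizontal) and in 3 M NaCl (vertical) for genes with at least 10 CPM in both 84 h libraries; red points are the 14 late genes. They lie at 1.67 or more in 1 M and 1.64 or more in 3 M, as the rule requires, and many grey points are high in 3 M alone.

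Between the salts, 3 M was lower than 1 M in 11 of the 14 genes at 36 h. At 84 h it was lower in 9 of the 14. Over the 5758 genes it was lower in 55.9% at 36 h and in 42.4% at 84 h. These counts depend on scaling, since TMM and DESeq2 each gave 10 of the 14 at both times. The median log2 fold change of all genes compared at 36 h moved from -0.12 to 0.05 with TMM and 0.08 with DESeq2. The log2 fold change of 3 M over 1 M ran from -1.65 (AG05473.1) to 0.44 (AG08163.1) at 36 h and from -1.49 (AG08156.1) to 1.27 (AG05473.1) at 84 h. The rule bounds the 36 h values from below. Its limit on the highest library bounds the 84 h values only in genes whose 2 highest libraries are 1 M and 3 M at 84 h. In 5 of the 14 genes the directions at 84 h and 36 h were opposite, with exact 95% counting intervals that left out 0 at both times, against 27.4% of the 5758 genes. The 5 are 35.7% of the 14, near the share over all genes. AG02684.1 was nearly level between the salts, at -0.09 at 36 h and 0.06 at 84 h, and both signs turned with TMM and DESeq2 scaling. Among the 14, AG05473.1 was the furthest below in 3 M at 36 h and the furthest above in 3 M at 84 h. Its 3 M level at 36 h was 0.344 of its 1 M level (CPM with 1 added), just above the limit of 0.333. Genes below that limit had been left out, so its place at 36 h in part describes the rule. It failed the rule when 0.5 was added in place of 1.

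Of the 14 genes, 2 have adjacent ID numbers, AG04733.1 and AG04734.1, with or without the left-out IDs. The 14 are drawn from 8441 listed IDs. Of the 29 genes late by size, 7 had an adjacent ID that was also late by size. How many adjacent IDs scattered genes would give was not tested. Whether ID order follows gene order on the chromosomes is not stated in the sources used here. AG04733.1 had 218, 956, 575 and 71.4 CPM in 0 M, 1 M, 3 M and 4 M at 84 h, against 128 and 51.1 CPM in 1 M and 3 M at 36 h. AG04734.1 had 145, 781, 302 and 59.8 CPM in 0 M, 1 M, 3 M and 4 M at 84 h, against 65.4 and 37.8 CPM in 1 M and 3 M at 36 h. Both were highest in 1 M and next highest in 3 M at 84 h, and lowest in 3 M at 36 h, with 4 M between the 36 h levels. This order was not particular to the pair, since AG03549.1, with a distant ID, had it too. Of the 14 genes, 9 were highest in 1 M at 84 h and 11 lowest in 3 M at 36 h. Over the 5758 genes with 10 CPM in 1 M and 3 M at 84 h, 20.1% and 29.5% were. The ratio of AG04733.1 to AG04734.1 in CPM ran from 1.19 to 1.96 over the 6 libraries, and no other pair of genes was set beside it. Strand and overlap handling are not given, and whether any reads were shared between these genes was not tested. Their log2 fold changes of 4 M over 0 M were -1.61 (-1.71 to -1.52) and -1.27 (-1.38 to -1.17).

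The pair sits in a stretch of IDs with like time differences. From AG04732.1 to AG04739.1, 7 of the 8 IDs are listed and 6 of them were late by size, the 2 chosen genes with AG04732.1, AG04735.1, AG04736.1 and AG04739.1. AG04735.1 had 70.2, 354, 187 and 3.39 CPM in 0 M, 1 M, 3 M and 4 M at 84 h, against 19.4 and 1.73 CPM in 1 M and 3 M at 36 h. AG04736.1 had 368, 2088, 798 and 17.0 CPM in 0 M, 1 M, 3 M and 4 M at 84 h, against 127 and 7.03 CPM in 1 M and 3 M at 36 h. These followed the same order over the salts at 84 h as the pair but dropped further in 3 M at 36 h and in 4 M, and the condition at 36 h left them out. AG04732.1 was left out likewise, with a log2 fold change of 3 M over 1 M at 36 h of -2.54. AG04739.1 reached 3309 CPM in 1 M at 84 h, 3.91-fold its 3 M level, and was left out by the limit on the highest library. AG04731.1, just before the stretch, had the same order over the salts at 84 h but a ratio of 2.05, below 3-fold. It had 142 and 90.8 CPM in 1 M and 3 M at 84 h, against 43.9 and 7.19 CPM at 36 h. AG04737.1, within the stretch, was highest in 0 M at 84 h (270 CPM) and not late. AG04740.1, beyond it, was highest in 4 M at 84 h (100 CPM) and lowest in 1 M (7.79 CPM). This stretch was singled out after its values were seen.

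**Figure D5:**
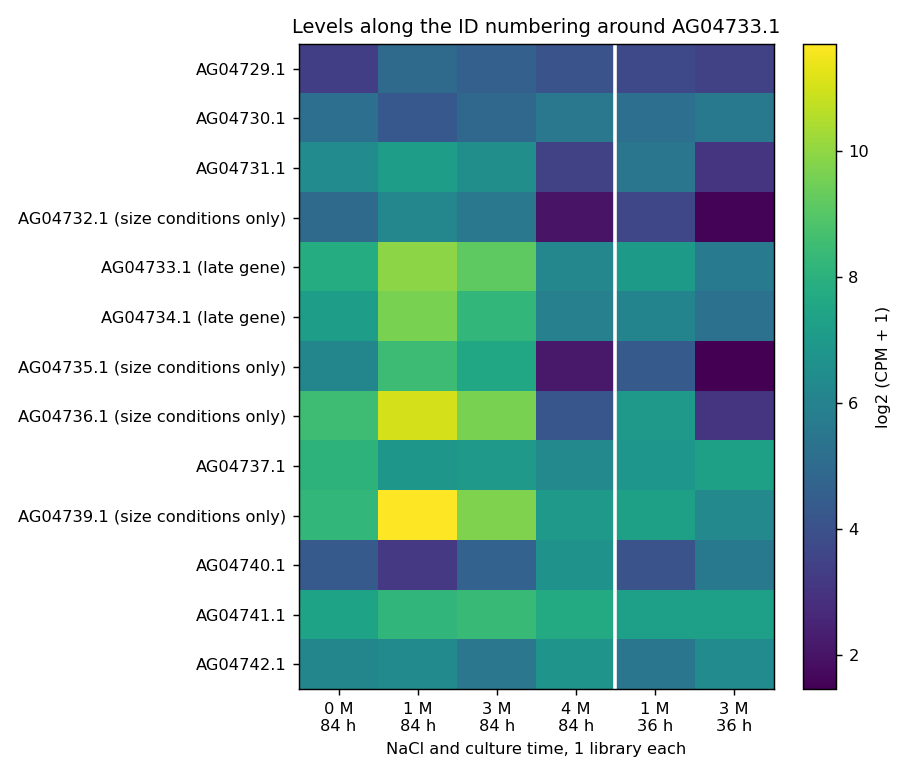
Levels (log2 of CPM with 1 added) of the listed IDs from AG04729.1 to AG04742.1 in each library, 84 h left of the white line and 36 h right of it. The 6 IDs that were late by size are brightest in 1 M at 84 h, but so are AG04729.1 and AG04731.1, which were not late by size. The other IDs shown, among them AG04737.1 and AG04740.1, are brightest in another library.

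The IDs next to each late gene were compared as well. Of the 25 listed non-member IDs next to a late gene, 18 had 10 CPM in both 84 h libraries. Of the 18, 2 were at least 2-fold above 36 h in both salts, where 2.62% of 5758 genes were. These were AG04732.1 and AG04735.1, on either side of the adjacent pair, in the stretch that was singled out after its values were seen. No neighbour elsewhere reached this size, so the 2 say nothing about neighbours of the other late genes. TMM or DESeq2 scaling brought the number to 3. The median ratio of CPM with 1 added was 0.982 for the 18 neighbours and 0.781 over all 5758 genes. AG08156.1 and AG08163.1 are 7 IDs apart and differed in 0 M at 84 h, where AG08156.1 was high and AG08163.1 was near the higher of its 36 h levels.

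The 3-fold limit ran through a continuous range of values. Just inside it were AG06562.1, AG08163.1 and AG02684.1, with ratios of 3.06, 3.08 and 3.16. Just outside were AG03004.1, AG00139.1 and AG04829.1, with ratios of 2.88, 2.86 and 2.85. With TMM scaling AG06562.1 and AG08163.1 dropped to 2.96 and 2.65, and with DESeq2 size factors AG02684.1 dropped to 2.92 as well. The limit of 10 CPM mattered less. The lowest 84 h levels inside it were 20.1, 26.3 and 26.5 CPM, in AG01836.1, AG03549.1 and AG04247.1. The highest outside it were 9.58, 9.28 and 5.50 CPM, in AG07712.1, AG03056.1 and AG03916.1. Of the 29 genes, the nearest that failed the condition at 36 h alone was AG07873.1. It had 13.7 CPM in 3 M and 49.4 CPM in 1 M at 36 h. Just inside this condition was AG05473.1, with 7.19 CPM in 3 M and 22.8 CPM in 1 M at 36 h. The nearest that failed the limit on the highest library alone was AG05290.1, with 196 CPM in 3 M and 726 CPM in 1 M at 84 h.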

How the data were processed

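The authors deposited raw read counts per gene ID, 1 file per library, with no normalization. The submitters' processing notes list TopHat2 2.0.8b along with HTSeq 0.5.4p2. The build, gene models, strandedness and filtering were not given in the sources used here. No file lists a count below 1, and an ID missing from a file was taken as 0 counts. Per the labels, each of the 6 libraries is its own condition, so no test was possible.

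Counts were divided by file totals (CPM), the scale on which the genes were chosen. Log2 fold changes used a prior count of 2. Exact 95% Clopper-Pearson intervals of ratios (SciPy 1.17.1) compare 2 single libraries and so cover counting error alone. Reads carry no molecular identifiers and are not independent, so the intervals can be too narrow even for that. A limit of 3 counts equals 0.163 to 0.183 CPM. TMM factors (edgeR 4.0.16) and median-of-ratios size factors (DESeq2 1.42.0) were alternatives. A gene entered a comparison with at least 10 CPM in 1 of its libraries, or in both 84 h libraries in 1 M and 3 M where stated. Scripts were tested on simulated data.

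The genes, lists and comparisons were chosen with earlier results of these data known. All 14 genes are named. By the naming rule these include the extremes of each comparison, and genes just outside the limits of the rule were added. Comparisons of 0 M or 4 M with both 1 M and 3 M, and of neighbouring IDs, were added after seeing the data.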

Additional observations from a re-analysis of the deposited data

Results flagged for a closer look

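In 5 of the 14 genes the difference between 3 M and 1 M NaCl had opposite directions at 84 h and at 36 h, with counting intervals that left out 0 at both times. Over the 5758 genes with 10 CPM in 1 M and 3 M at 84 h, 27.4% did so, and the 35.7% of the 14 is near that share. With 1 library per condition the difference between the times was not tested. The log2 fold change of 3 M over 1 M at 84 h minus that at 36 h was 2.92 for AG05473.1 (1.27 at 84 h and -1.65 at 36 h). It was 1.49 for AG02229.1 (0.42 and -1.08). It was -1.72 for AG08156.1 (-1.49 and 0.24) and -1.08 for AG08163.1 (-0.64 and 0.44). For AG02684.1 it was 0.15 (0.06 and -0.09), and both signs turned with TMM and DESeq2 scaling.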

How the results depend on the processing

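The number of genes that met the rule was 14. It was 12 with TMM factors and 11 with DESeq2 size factors, all of them among the 14, and stayed within 1.5 times with 0.5 added to CPM, with minima of 5 or 20 CPM, or with no ID left out. The gene lost with 0.5 added was AG05473.1. The number of genes was 8 at 4-fold and 98 at 2-fold over 36 h. With the time contrast taken in 1 M alone it was 140, and in 3 M alone 275, both added after seeing the data and both holding all 14. At a size of 4-fold, 1 gene was higher and 1 lower in 4 M than in 0 M, against 5 and 6 at 2-fold. Both counts and the median stayed close with the other scalings, a prior count of 0.5 or (counts) intervals beyond 2-fold. At 2-fold over the higher 36 h level, 5 genes were late in 0 M and 6 in 4 M, against 1 and 3 at 3-fold. At 3-fold, 4 genes were below both 1 M and 3 M in 0 M, against 9 at 2-fold. No paired analysis was possible because each condition has 1 library. No replicate could be left out. Every gene had at least 35 reads in each library. The spread between cultures is unknown and limits every comparison. Whether the labels of the 3 M libraries could be exchanged was not tested.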
